A study of Mus musculus with 16 samples.

Results

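The Rnf genes are named for a RING finger, a zinc-binding fold carried by many ubiquitin ligases. Members were every probe whose platform gene symbol is Rnf followed by a digit. That rule gave 107 probes of 65 genes, out of 25697 probes and 16590 genes on the array. Of these, 78 probes of 48 genes passed the filter on dim probes and were tested, against 13884 probes of 9429 genes in all. The family was picked because its median was higher with anti-MYF5 than with control IgG, so its members were chosen by the measured values that compare the antibodies. Those values are given here as a description. Counts of genes past a threshold in that contrast say only how large the differences were beside the spread between arrays, and nothing is supported with them.

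C2C12 is a mouse myoblast line, and its cytoplasmic extracts were precipitated with antibodies and the RNA that came down was read on 16 Illumina bead arrays in 4 groups of 4. The groups were DM with anti-MYF5, DM with IgG, GM with anti-MYF5 and GM with IgG. DM is differentiation medium, which is DMEM with 2% horse serum, and GM is growth medium, which is DMEM with 10% fetal bovine serum. All extracts went onto antibody-coated protein A sepharose beads, and the antibody was sc-302 against MYF5 or a control IgG. The labels give no time in DM and do not say whether replicates were separate cultures, so p-values measure the spread between these samples, which may be technical. The input RNA was not analysed here, and a level is the RNA recovered on the beads and not the RNA in the cells.

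Ubiquitin is passed from an activating enzyme (E1) to a conjugating enzyme (E2), and a ligase (E3) brings the charged E2 to a target protein. RING ligases bind the E2 and the target together and do not carry ubiquitin themselves, while RING-between-RING and HECT ligases take it over first. In muscle, ubiquitin ligases are known for breaking down sarcomere proteins during wasting and for removing cell cycle and signalling proteins as myoblasts differentiate. MYF5 is best known as a DNA-binding protein that commits cells to the muscle lineage.

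Mean signal per array lay between 324 and 581 units, and 46.4% to 50.9% of probes were detected above the negative control beads (detection p under 0.05). Detection was 50.4% on average for DM with anti-MYF5, 50.2% for DM with IgG, 48.2% for GM with anti-MYF5 and 47.8% for GM with IgG. The myoblast markers Des, Myod1, Vim, Itga7 and Msc were detected on all 16 arrays, and Cdh15 had no probe. The summed signal of 7 of 8 listed differentiation markers (Myog, Ckm, Acta1, Tnnt3, Tnnc1, Mymk and Mylpf, with no probe for Myh3) was 52632 to 73550 in DM with anti-MYF5, 91869 to 103182 in DM with IgG, 606 to 802.5 in GM with anti-MYF5 and 869 to 999 in GM with IgG. The 3 neuron markers, the 3 adipocyte markers on the array, Ptprc, Alb and Krt5 were not detected on any array. Of 2 blood markers on the array, Hba-a1 was detected and averaged 4.50 log2 units in DM with anti-MYF5, 5.08 in DM with IgG, 6.82 in GM with anti-MYF5 and 9.12 in GM with IgG. Bglap, a bone marker, averaged 5.14, 6.09, 4.42 and 4.84 log2 units in those groups, and Cdh1, an epithelial marker, lay between 4.99 and 5.32 in all of them.

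Of the 48 tested Rnf genes, 39 were detected on all 16 arrays. The other 17 Rnf genes did not pass and were detected on at most 2 arrays: Rnf122, Rnf13, Rnf133, Rnf138rt1, Rnf144a, Rnf144b, Rnf150, Rnf151, Rnf152, Rnf17, Rnf182, Rnf183, Rnf207, Rnf222, Rnf224, Rnf32 and Rnf43. Each tested gene stands by its brightest probe, and levels are normalized log2 signals. Levels are not compared between genes, because probes differ in brightness. Of 19 genes with several tested probes, 0 had probes with opposite calls, and only Rnf11 had probes over 1 log2 unit apart in a comparison.

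The median level of the 48 genes was 7.39, 7.32, 7.40 and 7.43 on the DM arrays with anti-MYF5, against 7.07, 6.99, 6.88 and 6.85 on the DM arrays with IgG. In GM it was 7.30, 7.39, 7.46 and 7.66 with anti-MYF5, against 6.98, 7.07, 7.0 and 7.05 with IgG. All anti-MYF5 arrays lay above all IgG arrays in both media. Before background correction and normalization the medians did not overlap in GM, at 7.69 to 8.08 with anti-MYF5 and 7.04 to 7.54 with IgG, but did in DM, at 7.57 to 7.98 with anti-MYF5 and 7.31 to 7.63 with IgG.

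Across the family, the median log2 fold change of anti-MYF5 over IgG was 0.26 in DM, with a range of -0.93 to 1.29, and 0.37 in GM, with a range of -0.83 to 1.31. Over all 9429 genes the medians were 0.02 in DM and 0.04 in GM. A gene was called where limma's adjusted p (Benjamini-Hochberg over all 13884 tested probes) was under 0.05. In DM, 21 of 48 Rnf genes were called higher (43.8%) and 8 lower (16.7%), beside 27.7% and 26.6% of all genes, or 54.3% either way. In GM, 27 were called higher (56.2%) and 5 lower (10.4%), beside 26.3% and 22.4% of all genes, or 48.7% either way. Positive log2 fold changes were found for 35 Rnf genes in DM and 36 in GM, beside 51.9% and 53.3% of all genes, and negative ones for 13 and 12, beside 48.1% and 46.7%. With no scaling between arrays the GM split was 35 higher and 0 lower and the DM split 13 and 7, and under median scaling they were 31 and 2 in GM and 13 and 7 in DM. The median of all genes moved as well, to 0.32 in GM and -0.02 in DM with no scaling. Under median scaling it was 0.19 in GM and -0.04 in DM. The rule chose the family on this contrast, so nothing is read from these shares. All 4 anti-MYF5 arrays lay above all 4 IgG arrays for 20 Rnf genes in DM and 19 in GM, and below them for 6 in DM and 3 in GM, beside 26.6%, 21.7%, 25.6% and 18.9% of all genes in that order. Among the 39 Rnf genes detected everywhere, the median was 0.33 in DM and 0.39 in GM, beside 0.03 and 0.06 for the 7203 genes detected on all arrays.

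**Figure D1:**
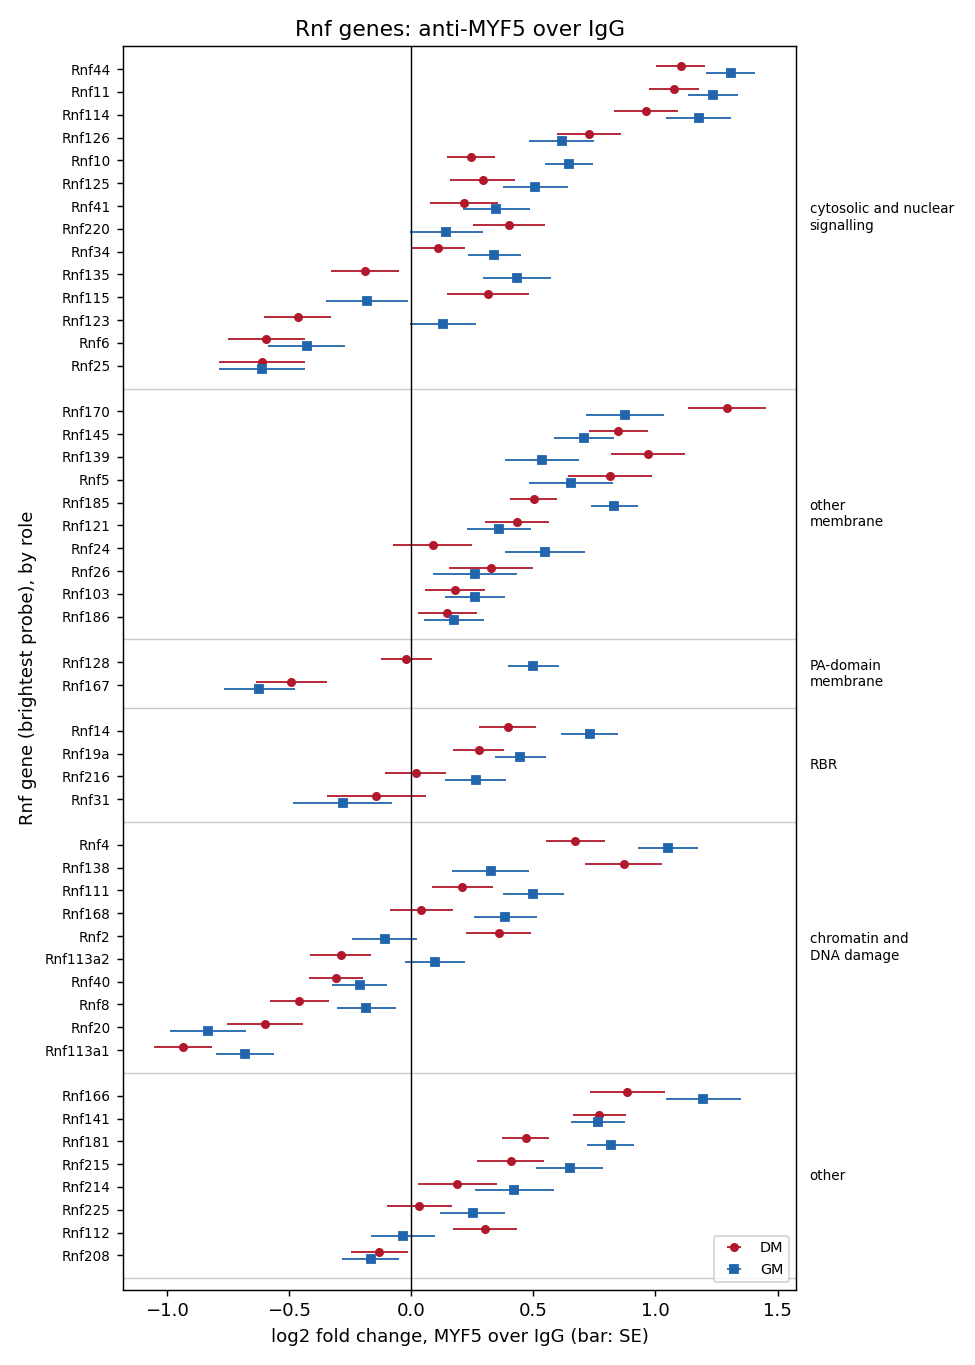
Log2 fold change of anti-MYF5 over IgG for the 48 tested Rnf genes, by role, in DM (red circles) and GM (blue squares), with bars of 1 standard error. By their brightest probes, all 10 membrane ligases without a protease-associated domain lie right of 0 in both media, beside 51.9% of all genes in DM and 53.3% in GM. The chromatin and DNA damage genes spread from -0.93 to 1.05.

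The signal of other genes moved with the antibody as well. The brightest and dimmest of the beta-actin (Actb) probes differed by 2.61 ± 0.76 log2 units in DM with anti-MYF5, 4.73 ± 0.81 in DM with IgG, 3.94 ± 0.52 in GM with anti-MYF5 and 6.42 ± 1.53 in GM with IgG (SD, n = 4 each). The summed differentiation markers and Hba-a1 given above were lower with anti-MYF5 in both media. The part of these differences in the Rnf values was not tested.

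Rnf44, Rnf11 and Rnf114 lay about 1 log2 unit or more higher with anti-MYF5 among the ligases that act in the cytosol and nucleus on signalling proteins. Of 14 such genes, 6 were called higher with anti-MYF5 in DM and 3 lower, beside 27.7% and 26.6% of all genes. In GM 9 were called higher and 2 lower, beside 26.3% and 22.4%. Rnf44 had levels of 12.62, 12.45, 12.61 and 12.76 in DM with anti-MYF5, 11.39, 11.45, 11.62 and 11.58 in DM with IgG, 12.72, 12.90, 12.83 and 12.62 in GM with anti-MYF5, and 11.39, 11.49, 11.67 and 11.30 in GM with IgG. The groups did not overlap, and the anti-MYF5 arrays were 2.15-fold higher in DM (log2 1.10, SE 0.10) and 2.48-fold higher in GM (log2 1.31, SE 0.10). Rnf11, which in human cells helps the A20 complex to shut down NF-kB signalling, had levels of 14.58, 14.34, 14.42 and 14.60 in DM with anti-MYF5, 13.43, 13.34, 13.36 and 13.50 in DM with IgG, 12.97, 13.23, 13.06 and 13.17 in GM with anti-MYF5, and 11.78, 11.997, 12.09 and 11.63 in GM with IgG. Within a medium the antibodies did not overlap, and the anti-MYF5 arrays were 2.11-fold higher in DM and 2.35-fold higher in GM. Rnf114, a zinc-finger ligase linked to psoriasis in humans, was 1.95-fold higher in DM (log2 0.96, SE 0.13) and 2.26-fold higher in GM (log2 1.18, SE 0.13).

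Of the same group, Rnf25 and Rnf6 lay lower with anti-MYF5. Rnf25, which acts on stalled ribosomes in human cells, had log2 fold changes of -0.61 in DM and -0.61 in GM (SE 0.18 each), and its anti-MYF5 and IgG arrays overlapped in both media. Rnf6, a ligase for the androgen receptor in human cells, was at -0.59 in DM and -0.43 in GM (SE 0.16 each), again with overlap.

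By their brightest probes, all 10 tested membrane ligases of the group without a protease-associated domain had positive log2 fold changes in both media. Of all genes, 51.9% were positive in DM and 53.3% in GM, and this contrast chose the family. Among the 10, Rnf186 lay at 0.15 in DM and 0.18 in GM, and with IgG was detected on 1 DM array and 0 GM arrays. The medians of the 10 were 0.47 in DM and 0.54 in GM. In DM 6 were called higher and 0 lower, beside 27.7% and 26.6% of all genes. In GM 7 were called higher and 0 lower, beside 26.3% and 22.4%. Averaged over probes, 6 of the 10 were called higher in each medium, with medians of 0.43 in DM and 0.45 in GM. Rnf170, an endoplasmic reticulum ligase for inositol trisphosphate receptors, had levels of 7.75, 8.03, 7.86 and 8.05 in DM with anti-MYF5, 6.53, 6.99, 6.42 and 6.57 in DM with IgG, 6.89, 7.25, 7.37 and 7.60 in GM with anti-MYF5, and 6.48, 6.43, 6.07 and 6.61 in GM with IgG. The antibodies did not overlap within a medium, at 2.45-fold in DM and 1.84-fold in GM. Rnf139 and Rnf145, which take part in the sterol-regulated breakdown of HMG-CoA reductase, had log2 fold changes of 0.97 (SE 0.15) and 0.85 (SE 0.12) in DM, and of 0.54 and 0.71 in GM. The 2 tested Rnf139 probes ranged from 0.24 to 0.97 in DM and from -0.12 to 0.54 in GM. Rnf185, a ligase of protein quality control in the endoplasmic reticulum, was at 0.50 in DM and 0.83 in GM (SE 0.10 each).

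The 10 chromatin and DNA damage genes split, with medians of -0.12 in DM and -0.005 in GM. The GM median was 0.26 under median scaling and 0.39 with no scaling, where the median of all genes was 0.19 and 0.32. In DM 3 were called higher and 4 lower, beside 27.7% and 26.6% of all genes. In GM 3 were called higher and 2 lower, beside 26.3% and 22.4%. Rnf4, which adds ubiquitin to SUMO-modified proteins, lay at 0.67 in DM and 1.05 in GM (SE 0.12 each). Rnf138, which acts in DNA end resection, lay at 0.87 in DM and 0.33 in GM (SE 0.16 each), and its groups overlapped in GM. Its 4 tested probes ranged from 0.06 to 0.97 in DM and from 0.05 to 0.59 in GM. Rnf20, which with Rnf40 places ubiquitin on histone H2B, had levels of 6.50, 6.22, 6.29 and 6.09 in DM with anti-MYF5, 7.16, 6.65, 6.90 and 6.79 in DM with IgG, 6.03, 5.94, 5.64 and 5.86 in GM with anti-MYF5, and 7.11, 6.47, 6.79 and 6.42 in GM with IgG. The antibodies did not overlap within a medium, and the log2 fold change was -0.60 in DM and -0.83 in GM (SE 0.16 each). Rnf113a1, whose human relative RNF113A is a spliceosome protein, had levels of 5.99, 5.81, 6.08 and 5.97 in DM with anti-MYF5, 7.09, 6.70, 7.03 and 6.78 in DM with IgG, 6.19, 6.16, 6.05 and 6.01 in GM with anti-MYF5, and 6.69, 6.76, 6.89 and 6.79 in GM with IgG. Its log2 fold changes were -0.93 in DM and -0.68 in GM (SE 0.12 each), with no overlap. Its relative Rnf113a2 lay at -0.29 in DM and 0.10 in GM, and whether each probe tells these 2 genes apart was not tested.

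Of 4 tested RING-between-RING genes, 2 were called higher in each medium and 0 lower. Of all genes, 27.7% were called higher and 26.6% lower in DM, and 26.3% and 22.4% in GM. Of the 2 tested genes with a protease-associated domain, Rnf167, a ligase of endosomes and lysosomes, lay at -0.49 in DM and -0.62 in GM (SE 0.15 each). Its 5 tested probes ranged from -0.49 to 0.12 in DM and from -0.62 to -0.015 in GM. Averaged over probes, 0 of these 2 genes were called lower in either medium. Of 8 other members, 4 were called higher in DM and 5 in GM, with 0 lower. Rnf166, which marks intracellular bacteria for autophagy in human cells, lay at 0.88 in DM and 1.20 in GM (SE 0.15 each), and Rnf181 at 0.47 in DM and 0.82 in GM (SE 0.10 each).

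DM and GM precipitations share no array, so their values can be set side by side. Rnf genes called higher with anti-MYF5 in both media numbered 18 of 48, and 5 were called lower in both, with 0 in opposite directions. Over all genes, 19.7% were called higher in both, 17.3% lower in both and 0.318% in opposite directions. Across the 48 genes, the log2 fold changes in DM and GM correlated at r = 0.84 and rho = 0.80, as a description over genes that share arrays.

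**Figure D2:**
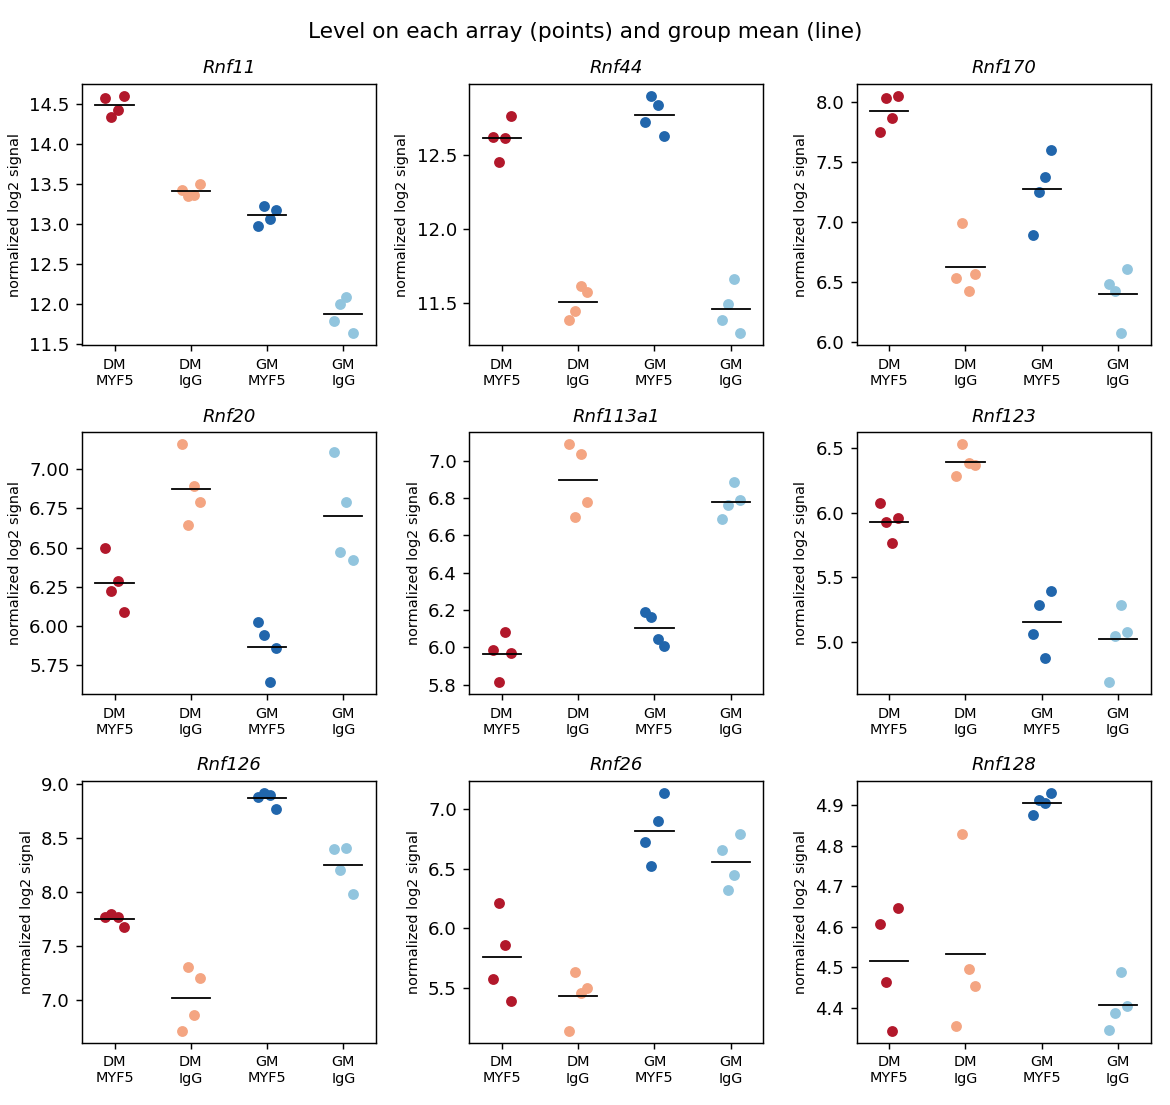
Normalized log2 level of 9 Rnf genes on each of the 16 arrays (points) with the group mean (line), for DM with anti-MYF5, DM with IgG, GM with anti-MYF5 and GM with IgG. Axes do not start at 0 and differ between genes. Rnf11 is higher in DM than in GM with either antibody, Rnf126 and Rnf26 lower, and Rnf128 lies between 4.34 and 4.93 on all arrays.

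The medium was compared within each antibody, which the choice of members did not use. With IgG, 10 Rnf genes were higher in DM than in GM and 12 lower, beside 29.5% and 34% of all genes, or 63.5% either way (20.8% and 25% of Rnf genes). With anti-MYF5, 11 were higher and 14 lower, beside 28.9% and 32.7% of all genes, or 61.5% either way (22.9% and 29.2% of Rnf genes). With anti-MYF5 all DM arrays lay above all GM arrays for 12 Rnf genes and below them for 13, beside 26% and 29.3% of all genes, and with IgG for 10 and 9, beside 25.8% and 29.2%. Log2 fold changes were positive for 20 Rnf genes and negative for 28 with anti-MYF5, beside 46% and 54% of all genes, and positive for 25 and negative for 23 with IgG, beside 45.8% and 54.2%. These counts are near or below the background, so they are not a result about the family. The family median was 0.04 with IgG and -0.13 with anti-MYF5, beside -0.06 for all genes with either antibody. The split moved with the scaling: with IgG it was 15 higher and 8 lower under median scaling, 18 and 3 with no scaling and 16 and 9 on the deposited scores. With anti-MYF5 it was 5 and 15 under median scaling, 5 and 13 with no scaling, 17 and 12 under cyclic loess and 15 and 12 on the deposited scores. All genes moved too: with IgG their median was 0.09 under median scaling and 0.19 with no scaling. Relative to all genes, the family median with IgG was 0.10, and 0.07 under either of these. With anti-MYF5 it was -0.08, and -0.12 under either of these and -0.05 under cyclic loess. The shares of all genes called each way under these scalings were not worked out. In these bulk extracts, fewer cells of a type and less RNA per cell cannot be told apart, and the differentiation markers given above moved with the medium, as did 3 markers of dividing cells. Those (Top2a, Mcm5 and Pcna) summed to 404 to 555.5 in DM with anti-MYF5, 585 to 910 in DM with IgG, 2906 to 4412.5 in GM with anti-MYF5 and 1933 to 4227 in GM with IgG, and their part in the Rnf values was not tested.

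**Figure D3:**
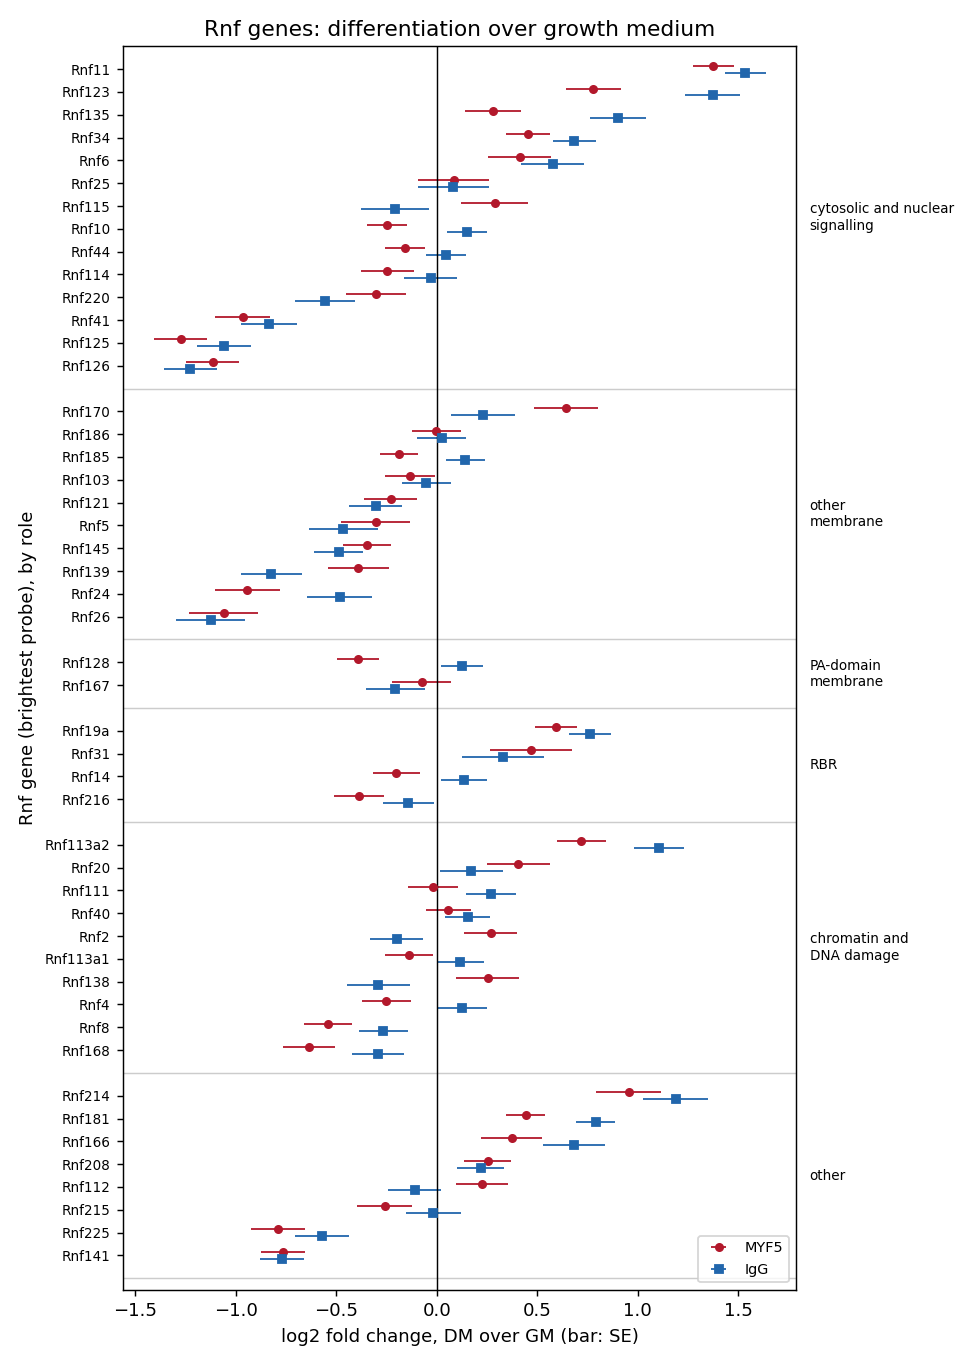
Log2 fold change of DM over GM for the 48 tested Rnf genes, by role, with anti-MYF5 (red circles) and with IgG (blue squares), with bars of 1 standard error. Rnf11, Rnf123 and Rnf214 lie furthest right and Rnf126, Rnf125 and Rnf26 furthest left with either antibody.

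With both antibodies 18 genes were called: 9 were called higher in DM with each and 9 lower, with 0 called in opposite directions, beside 23.8%, 26.5% and 0.329% of all genes. The 9 higher genes were Rnf11, Rnf113a2, Rnf123, Rnf166, Rnf181, Rnf19a, Rnf214, Rnf34 and Rnf6. The 9 lower genes were Rnf125, Rnf126, Rnf139, Rnf141, Rnf145, Rnf225, Rnf24, Rnf26 and Rnf41. A further 11 genes passed with 1 antibody, beside 23.8% of all genes. Some calls rest on the scaling. With no scaling between arrays, 9 of 22 calls with IgG were lost, for Rnf121, Rnf139, Rnf141, Rnf145, Rnf220, Rnf225, Rnf24, Rnf41 and Rnf5 (adjusted p = 0.104 to 0.708), and 8 of 25 with anti-MYF5, for Rnf10, Rnf139, Rnf166, Rnf181, Rnf19a, Rnf20, Rnf34 and Rnf6 (adjusted p = 0.0501 to 0.582). Under median scaling 4 were lost with IgG (Rnf121, Rnf145, Rnf220 and Rnf5) and 7 with anti-MYF5 (the same as with no scaling except Rnf10). With no filter on dim probes Rnf121 was lost with IgG, and Rnf10, Rnf139, Rnf166 and Rnf20 with anti-MYF5. The log2 fold changes with anti-MYF5 and with IgG, which share no array, correlated across the 48 genes at r = 0.88 and rho = 0.85, as a description.

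Among the signalling ligases, 4 rose and 4 fell in DM with anti-MYF5, and 5 rose and 4 fell with IgG. Of all genes, 28.9% rose and 32.7% fell with anti-MYF5, and 29.5% and 34% with IgG. Rnf11, whose levels are given above, rose 2.60-fold with anti-MYF5 (adjusted p = 1.4e-10) and 2.90-fold with IgG (adjusted p = 2.1e-11), and all DM arrays lay above all GM arrays of the same antibody. Its 3 tested probes gave log2 fold changes of 1.38 to 2.45 with anti-MYF5 and 1.46 to 2.26 with IgG. Rnf123, the ligase subunit of the KPC complex that degrades the cell cycle inhibitor p27, had levels of 6.07, 5.92, 5.76 and 5.96 in DM with anti-MYF5, 5.06, 5.28, 4.87 and 5.39 in GM with anti-MYF5, 6.29, 6.53, 6.39 and 6.37 in DM with IgG, and 4.68, 5.04, 5.28 and 5.08 in GM with IgG. The media did not overlap, and Rnf123 rose by log2 0.78 with anti-MYF5 (SE 0.14, adjusted p = 4.3e-05) and 1.37 with IgG (SE 0.14, adjusted p = 1.6e-08). It was detected on 3 of 4 arrays in each GM group. Rnf34, which acts on caspases, rose by log2 0.46 with anti-MYF5 (adjusted p = 0.00103) and 0.68 with IgG (adjusted p = 1.1e-05). Its 3 tested probes ranged from 0.00056 to 0.46 with anti-MYF5 and from 0.14 to 0.68 with IgG, and averaged over probes it did not pass with anti-MYF5 (adjusted p = 0.245).

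Rnf126, which with Bag6 clears proteins that missed their membrane, had levels of 7.76, 7.79, 7.77 and 7.68 in DM with anti-MYF5, 8.88, 8.91, 8.90 and 8.77 in GM with anti-MYF5, 6.72, 7.30, 6.86 and 7.20 in DM with IgG, and 8.39, 8.21, 8.41 and 7.98 in GM with IgG. The media did not overlap, and the log2 fold change was -1.11 with anti-MYF5 (SE 0.13, adjusted p = 2.5e-07) and -1.23 with IgG (SE 0.13, adjusted p = 5.65e-08). Rnf125, a ligase for the viral RNA sensor RIG-I, had levels of 4.74, 5.02, 5.16 and 5.24 in DM with anti-MYF5, 6.33, 6.32, 6.27 and 6.34 in GM with anti-MYF5, 4.62, 4.68, 5.04 and 4.65 in DM with IgG, and 5.99, 5.79, 5.94 and 5.50 in GM with IgG. It fell in DM with both antibodies (log2 -1.27 with anti-MYF5 and -1.06 with IgG, SE 0.13 each, adjusted p = 3.8e-08 and 5.5e-07), and was detected on 3 DM arrays with anti-MYF5, 1 DM array with IgG and all 8 GM arrays. Rnf41, which degrades the growth factor receptor ErbB3, fell with both antibodies (log2 -0.97 with anti-MYF5 and -0.83 with IgG, SE 0.14 each). Rnf135, an activator of RIG-I, rose with IgG (log2 0.90, SE 0.14, adjusted p = 8.3e-06), and with anti-MYF5 was at 0.28 (adjusted p = 0.088). Its 3 tested probes ranged from 0.17 to 0.90 with IgG and from 0.02 to 0.28 with anti-MYF5. Rnf220, a ligase for the corepressor Sin3b, fell with IgG (log2 -0.56, SE 0.15, adjusted p = 0.00261) and was at -0.30 with anti-MYF5 (adjusted p = 0.086).

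Promoters of Rnf123 and Rnf126 are shown because these genes moved in opposite directions with the medium and MYF5 belongs to a family of factors that bind E-boxes. The windows run from 250 bases before to 50 after an annotated start (RefSeq, GRCm38.p6), written on the gene's strand, with E-boxes in capitals. Both starts lie inside the annotated gene spans, which reach base 108080352 for Rnf123 and 79771448 for Rnf126. Sequence at those far ends was not searched. The E-box is the motif CANNTG, where N is any base, and it reads alike on both strands.
Rnf123 (chr9:108079252-108079551, minus strand): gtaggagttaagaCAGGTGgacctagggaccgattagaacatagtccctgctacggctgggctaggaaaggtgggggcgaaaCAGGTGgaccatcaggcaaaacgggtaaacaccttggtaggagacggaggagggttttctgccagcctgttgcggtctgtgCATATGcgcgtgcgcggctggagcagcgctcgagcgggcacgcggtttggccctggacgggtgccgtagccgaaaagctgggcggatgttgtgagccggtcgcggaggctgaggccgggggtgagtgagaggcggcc
Rnf126 (chr10:79766903-79767202, minus strand): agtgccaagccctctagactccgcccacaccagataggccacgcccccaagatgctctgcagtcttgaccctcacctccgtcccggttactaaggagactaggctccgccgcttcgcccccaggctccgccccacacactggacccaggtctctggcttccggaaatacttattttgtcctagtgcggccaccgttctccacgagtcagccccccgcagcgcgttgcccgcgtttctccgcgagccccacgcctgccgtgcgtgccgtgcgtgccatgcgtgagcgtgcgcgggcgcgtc
The Rnf123 window holds 3 E-boxes and the Rnf126 window holds 0. Rnf214, which also rose, has 2 windows with 0 and 1 E-boxes, and the window of Rnf26, which fell, holds 0. Promoters of 37 of the 48 tested Rnf genes were in the table, 50 in all, and 33 of them hold an E-box (66%), beside 64.3% of 9975 promoters of all tested genes and 72.3% of all 32851. The form CAGCTG, which every E-box search also matches, is in 10% of the Rnf promoters, beside 15.5% of those of tested genes and 16.3% of all. Of 11 promoters of genes higher in DM with both antibodies, 9 hold an E-box, and of 9 promoters of genes lower in DM, 7 do. The promoters of genes lower in DM that hold none are those of Rnf126 and Rnf26. A match is a description of the letters and not a binding site.

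Of the 10 tested membrane ligases without a protease-associated domain, 4 fell and 1 rose in DM with anti-MYF5, with a median log2 fold change of -0.27, and 6 fell and 0 rose with IgG, with a median of -0.38. Over all genes 32.7% fell and 28.9% rose with anti-MYF5, and 34% fell and 29.5% rose with IgG. With no scaling between arrays, these counts were 4 fallen and 1 risen with anti-MYF5, and 1 fallen and 1 risen with IgG, with medians of -0.43 and -0.03. The medians of all genes were then -0.15 with anti-MYF5 and 0.19 with IgG. Rnf26, an endoplasmic reticulum protein that holds endosomes near the nucleus, had levels of 5.57, 6.21, 5.86 and 5.40 in DM with anti-MYF5, 6.72, 6.52, 6.90 and 7.13 in GM with anti-MYF5, 5.14, 5.63, 5.46 and 5.50 in DM with IgG, and 6.66, 6.32, 6.45 and 6.79 in GM with IgG. The media did not overlap, and Rnf26 fell by 1.06 log2 units with anti-MYF5 (SE 0.17, adjusted p = 1.6e-05) and by 1.12 with IgG (SE 0.17, adjusted p = 7.3e-06). Rnf139 fell by 0.39 log2 units with anti-MYF5 (SE 0.15, adjusted p = 0.031) and by 0.82 with IgG (SE 0.15, adjusted p = 7.04e-05). Rnf145 fell by 0.35 with anti-MYF5 (adjusted p = 0.017) and by 0.49 with IgG (SE 0.12 each, adjusted p = 0.0014). Rnf24, a partner of TRPC channels, fell by 0.94 log2 units with anti-MYF5 (SE 0.16, adjusted p = 3.4e-05), where 1 of 4 DM arrays detected it. Since Rnf24 was not detected on any DM array with IgG, its fall there is printed as a bound of at least 1.30-fold (adjusted p = 0.013), set against the lowest detected signal. Rnf170 was the member that rose, by 0.64 log2 units with anti-MYF5 (SE 0.16, adjusted p = 0.00147), and with IgG it was at 0.23 (adjusted p = 0.22).

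Of the 10 chromatin and DNA damage genes, 2 rose and 2 fell in DM with anti-MYF5, beside 28.9% and 32.7% of all genes. With IgG 1 rose and 0 fell, beside 29.5% and 34%. Averaged over probes, 2 rose and 3 fell with anti-MYF5, and 1 rose and 3 fell with IgG. The 4 tested Rnf138 probes ranged from -0.67 to 0.25 with anti-MYF5 and from -0.95 to -0.29 with IgG. Rnf113a2 rose with both antibodies, by 0.72 log2 units with anti-MYF5 and 1.11 with IgG (SE 0.12 each, adjusted p = 3.4e-05 and 9.9e-08). Rnf168, which adds ubiquitin to histone H2A at broken DNA, fell with anti-MYF5 (log2 -0.64, SE 0.13, adjusted p = 2.1e-04) and was at -0.29 with IgG (adjusted p = 0.053). Rnf20 rose with anti-MYF5 (log2 0.41, SE 0.16, adjusted p = 0.029) and was at 0.17 with IgG. Of the RING-between-RING genes, Rnf19a, a ligase found on inclusions of mutant SOD1, rose with both antibodies (log2 0.59 with anti-MYF5 and 0.76 with IgG, SE 0.10 each). Of the 8 other members, Rnf214 had levels of 8.45, 8.66, 8.83 and 8.68 in DM with anti-MYF5, 7.57, 7.39, 8.07 and 7.78 in GM with anti-MYF5, 8.32, 8.57, 8.57 and 8.41 in DM with IgG, and 6.88, 7.28, 7.23 and 7.72 in GM with IgG. The media did not overlap, with log2 fold changes of 0.96 with anti-MYF5 and 1.19 with IgG (SE 0.16 each, adjusted p = 2.8e-05 and 1.6e-06). Rnf166 rose by 0.37 with anti-MYF5 (adjusted p = 0.041) and 0.68 with IgG (SE 0.15 each). Rnf181 rose by 0.44 log2 units with anti-MYF5 and 0.79 with IgG (SE 0.10 each), while Rnf141 fell by 0.76 and Rnf225 by 0.79 with anti-MYF5, and by 0.77 and 0.57 with IgG.

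Whether the antibody difference itself differed between media was tested as DM minus GM of the log2 fold change of anti-MYF5 over IgG. The rule used the direction of the antibody difference and not its change with the medium. Of 48 Rnf genes, 0 were called higher in DM and 1 lower, beside 2.48% and 3.3% of all genes, or 5.78% in either direction. The difference was positive for 18 Rnf genes and negative for 30, beside 51.3% and 48.7% of all genes. At an unadjusted p under 0.05 there were 10, beside 21.6% of all genes. Values ranged from -0.62 to 0.54, with a median of -0.17, beside 0.01 for all genes. Rnf135 (-0.62, SE 0.20, adjusted p = 0.067) and Rnf123 (-0.59, SE 0.19, adjusted p = 0.074), named after their values were seen, did not pass here and did under median scaling, with no scaling and on the deposited scores. The called gene was Rnf128 (GRAIL), a membrane ligase with a protease-associated domain known for its part in T cell unresponsiveness. Its levels were 4.61, 4.46, 4.34 and 4.65 in DM with anti-MYF5, 4.36, 4.83, 4.49 and 4.45 in DM with IgG, 4.88, 4.91, 4.91 and 4.93 in GM with anti-MYF5, and 4.35, 4.39, 4.49 and 4.41 in GM with IgG. The fitted difference was -0.52 (adjusted p = 0.043), which is no estimate of its size, since no array of DM with anti-MYF5 or of GM with IgG detected the probe. Rnf128 was detected on 4 of 16 arrays, 3 of them GM arrays with anti-MYF5 and the other a DM array with IgG, so it passed the filter mainly through the group where it was high. Leaving out 1 array at a time, the call was lost for 12 of the 16 arrays, with adjusted p between 0.030 and 0.099. It held only without DM IgG replicate 1, DM MYF5 replicate 4, GM IgG replicate 3 or GM IgG replicate 4.

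Other parts of the ubiquitin system were listed for comparison. The 54 tested RING ligases of other names had median log2 fold changes of anti-MYF5 over IgG of 0.37 in DM and 0.29 in GM. In DM 28 were called higher and 6 lower, beside 27.7% and 26.6% of all genes. In GM 24 were called higher and 4 lower, beside 26.3% and 22.4%. The medians were 0.25 and 0.20 for 28 E1 and E2 enzymes, 0.12 and 0.10 for 19 HECT ligases, -0.17 and -0.04 for 25 TRIM ligases, and -0.06 and -0.15 for 19 cullins and core adaptors. Whether the Rnf family differs from any of these lists was not tested.

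**Figure D4:**
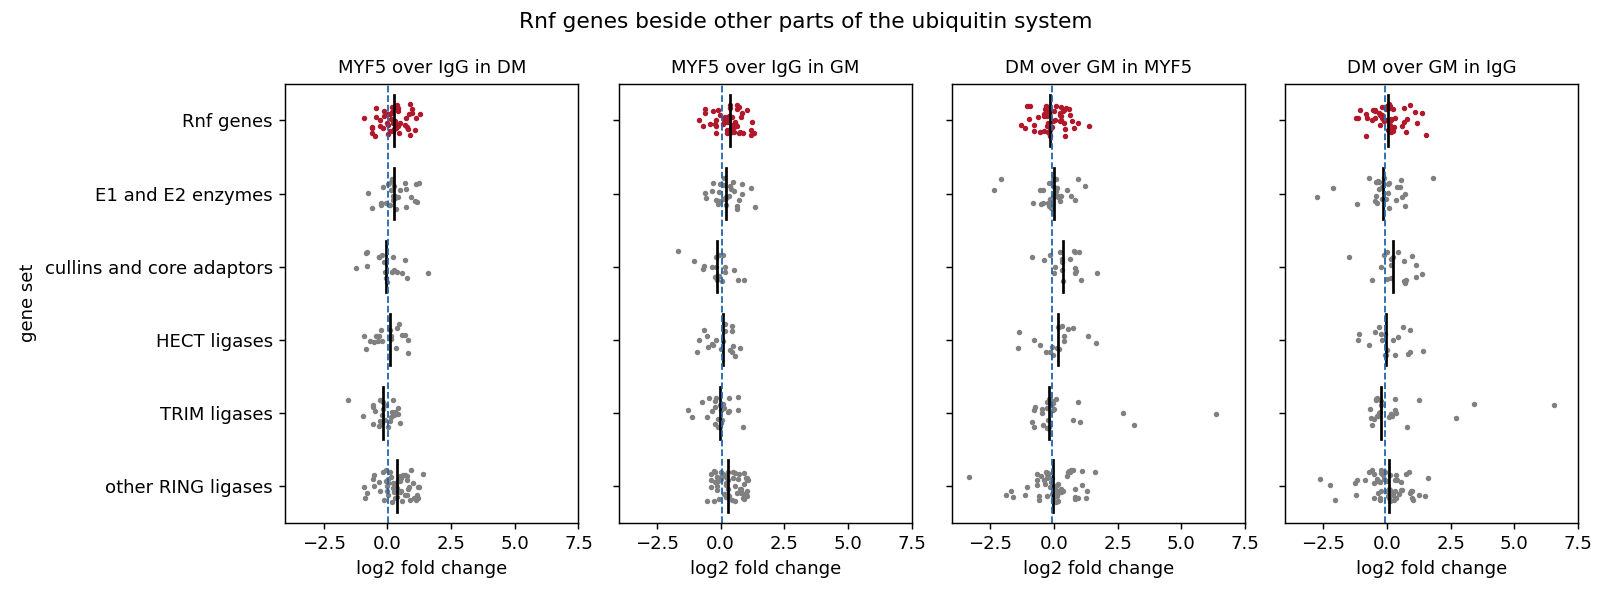
Log2 fold change of every tested gene (points) in the Rnf family and 5 other lists of the ubiquitin system, with the list median (black bar) and the median of all tested genes (dashed line), in 4 comparisons. The medians of the Rnf, other RING, E1 and E2, and HECT lists lie right of the dashed line in both antibody comparisons. The TRIM point furthest right for DM over GM is Trim72, named after its values were seen and not detected on any GM array, so its place there is no estimate of a fold.

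Among single genes of these lists, Ube2g2, an E2 of endoplasmic reticulum quality control, lay at 1.14 in DM and 1.36 in GM for anti-MYF5 over IgG (SE 0.15 each), and Ube2f, an E2 for Nedd8, at 1.26 and 1.19 (SE 0.14 each). Traf6, a ligase of NF-kB signalling, lay at 1.18 and 1.08 (SE 0.12 each), and Siah1a at 1.19 and 1.05 (SE 0.14 each). Smurf2, which restrains TGF-beta signalling, lay at 0.81 and 0.76, and Hectd2 at 0.81 and 0.56. Lower with anti-MYF5 were Elob, the adaptor elongin B, at -1.23 and -1.69 (SE 0.11 each), Nedd8, which modifies cullins, at -0.79 and -1.06, the muscle ligase Trim54 at -1.54 and -1.28, and Trim56 at -0.50 and -1.12.

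For DM over GM with anti-MYF5, 6 E1 and E2 enzymes rose and 7 fell, 12 cullins and adaptors rose and 2 fell, 6 HECT ligases rose and 4 fell, 6 TRIM ligases rose and 8 fell, and 15 other RING ligases rose and 15 fell, beside 28.9% of all genes that rose and 32.7% that fell. With IgG, the counts were 8 and 12 for E1 and E2 enzymes, 9 and 3 for cullins and adaptors, 6 and 4 for HECT, 7 and 9 for TRIM and 20 and 15 for other RING ligases, beside 29.5% and 34% of all genes. Ube2c, the E2 of the anaphase-promoting complex, fell by 2.75 log2 units with IgG, where 1 of 4 DM arrays detected it, and was not detected on any DM array with anti-MYF5. Ube2t, the E2 of the Fanconi anaemia pathway, fell by 2.07 and 2.12 log2 units with anti-MYF5 and IgG. Fbxo32 (atrogin-1), a muscle wasting adaptor, rose by 1.68 with anti-MYF5 and 1.35 with IgG, and Cul1, the scaffold of SCF ligases, by 0.98 and 1.15. Pdzrn3, a ligase of the neuromuscular junction, rose by 1.60 and 1.59, and Dtx4 by 1.30 and 1.49. Smurf1 fell by 1.39 and 1.15, Wwp2 by 1.43 and 1.11, Trim16 by 0.76 and 0.65, and Trim47 by 0.85 and 0.61.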

How the data were processed

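RNA from MYF5 or control IgG precipitations of C2C12 extracts was measured on 16 Illumina mouse bead arrays, 4 in each of 4 groups. Per the file headers, the deposited table holds, per array, the mean signal intensity of each probe, not normalized, beside its detection p-value. The deposited series values are scores, found here to be each array's log10 signal centred on its mean and divided by its SD; they served as an alternative. Scanning used GenomeStudio 2011.1, per the submitters' processing notes. Neither table states a chip or slide, so neither was tested as a batch. The number of arrays limits the precision.

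Intensities were background-corrected with limma 3.58.1 in R 4.3.3 (normexp, controls inferred from the detection p-values, offset 16), put on the log2 scale and quantile normalized. Probes detected at p under 0.05 on at least 4 arrays were kept. One model over the 4 groups was fitted with lmFit and eBayes (intensity trend), with 12 residual degrees of freedom, and p-values were adjusted by the Benjamini-Hochberg method. A gene stands by its brightest probe. Genes named were the 8 members with the largest and the 4 with the smallest antibody change, up to 8 called members each way per medium comparison, those called for the difference, those whose probes differed by over 1 log2 unit, and up to 2 genes of each other list per comparison. Where no array of a group detected a probe, a fold is a bound against the lowest detected signal. Probes with 1 symbol numbered 23978, and 1719 had none. The members and lists were chosen with earlier results of these data known. Alternatives changed the background, scaling, filter, trend, probe rule, replicate block and arrays used. The fit was tested on simulated data.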

Additional observations from a re-analysis of the deposited data

Results flagged for a closer look

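Among 132 groups of 4 arrays examined for a lone outlying array, 3 had one, where chance alone flags about 1 in 20. Rnf125 had 1 DM array with IgG at 5.04 log2 units, with the nearest at 4.68 and the lowest at 4.62. Rnf138 had 1 GM array with IgG at 6.29, with the nearest at 6.93 and the highest at 7.0. Rnf220 had 1 DM array with IgG at 5.32, with the nearest at 5.78 and the highest at 5.87. Rnf128 was singled out because its antibody difference itself differed between media, with a fitted value of -0.52 log2 units for DM minus GM. No array of DM with anti-MYF5 or of GM with IgG detected its probe, so this is no estimate of the size, and the gene passed the filter mainly through GM with anti-MYF5.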

How the results depend on the processing

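The family was picked because its median was higher with anti-MYF5, and the alternatives reuse the same arrays. A sign that stays the same is therefore no support. The family median of anti-MYF5 over IgG was positive under every alternative run. In GM it was 0.37, and 0.28 without background correction, 0.29 with offset 50, 0.63 under median scaling, 0.76 with no scaling, 0.23 on the deposited scores, 0.18 with no filter on dim probes and 0.34 to 0.41 with an array left out. In DM it was 0.26, and in the same order 0.16, 0.17, 0.20, 0.22, 0.10, 0.089 and 0.23 to 0.26. Values on the deposited scores, here and below, are in SDs of an array's log10 signal and not in log2 units. Their size cannot be set beside the others. Scaling moved the median of all genes as well, to 0.32 for anti-MYF5 over IgG in GM with no scaling. Relative to all genes, the family median ran from 0.18 to 0.44 in GM and from 0.09 to 0.26 in DM. For DM over GM the family median with IgG was 0.04, and 0.16 under median scaling, 0.076 under cyclic loess, 0.26 with no scaling, 0.017 on the deposited scores, 0.0050 with no filter and -0.010 to 0.061 with arrays left out, the lowest without GM IgG replicate 3, where it reversed. With anti-MYF5 it was -0.13, and in the same order -0.25, -0.042, -0.26, -0.047, -0.021 and -0.16 to -0.10. Counts of called genes, 22 with IgG and 25 with anti-MYF5, ran from 20 to 24 and from 20 to 28 with arrays left out.

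For the difference between media, 1 gene was called, and 2 without background correction, 2 with offset 50, 2 under median scaling, 2 on the deposited scores, 3 with no scaling, 0 under cyclic loess, 0 with no intensity trend, 0 with the stricter filter, which removes Rnf128 by construction, and 0 to 4 with arrays left out. It was 4 without GM IgG replicate 4, and also 4 without both GM arrays numbered 4, a choice made after seeing the data. Apart from the stricter filter, the cause was not tested. With a replicate block the counts were 23 with IgG, 27 with anti-MYF5 and 1 for the difference. With group means removed, same-numbered arrays of the 2 antibodies correlated at 0.33, 0.29, 0.011 and 0.61 in GM. In DM they correlated at 0.37, 0.42, 0.020 and 0.26. Between media, the lowest was -0.14. Not all lay above 0.1, so the numbers were not taken as pairs, but these values do not settle whether the antibodies were paired. For single genes, 1542 of 1651 alternatives kept direction and call, 78 moved in size, 31 lost the call and 0 reversed. The deposited scores were counted among these though their scale differs. Of the calls lost, 13 came from an array left out, 8 from no scaling and 5 from median scaling. Rnf128 lies close to background, which limits what its signal can show.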
